A study of Mus musculus with 12 samples.

Results

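Pvalb, Calb1, Calb2, Sst, Vip, Npy, Cck and Crh are 8 genes whose products are used to tell classes of inhibitory interneurons apart, and they were taken by name from a gene-level FPKM table of mouse brain (read fragments divided by gene length and library size). All 8 of the 8 were found among 56748 genes, and all 8 were among the 19571 genes that passed the filter on low values (0.5 FPKM or more in 2 or more of the 12 libraries). The libraries come from adult C57BL/6 mice in 3 arms of 4 animals, with 2 females and 2 males in each arm. LPS+DMA mice received intraperitoneal LPS (lipopolysaccharide from the outer membrane of bacteria, a trigger of inflammation) at 0.5 mg/kg daily for 7 days together with DMA (N,N-dimethylacetamide, a solvent found in drug formulations), at a dose that the sources used here do not state. LPS mice received the same LPS schedule, and PBS mice received phosphate-buffered saline. The labels give whole brain taken on day 7 as the tissue for each mouse, with 1 library per animal, and carry no extraction or sequencing batch.

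Interneurons release GABA onto nearby neurons and set the timing and gain of local circuits. Their classes are told apart by calcium-binding proteins and by neuropeptides stored beside GABA. Parvalbumin marks fast-spiking basket and chandelier cells, somatostatin marks cells that target dendrites, and vasoactive intestinal polypeptide marks cells that mainly inhibit other interneurons. None of these genes is restricted to cortical interneurons: parvalbumin and calbindin are also made by cerebellar Purkinje cells, calretinin by cerebellar granule cells, cholecystokinin by cortical pyramidal cells, and corticotropin-releasing hormone by neurons of the hypothalamus. In bulk tissue, fewer cells of a type and less RNA per cell cannot be told apart.

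Vip, Npy and Cck had similar profiles over the libraries and Pvalb an opposite one, so their promoters are given here. That of Sst is added, and the profile of Sst was also near that of Npy. RefSeq promoter sequences on GRCm38.p6 matched 5 of the 8 genes, and the window runs from 100 bases before to 50 bases after the first annotated start. Capitals mark letters found on either strand: the core of the cAMP response element (TGACGT), its full palindrome (TGACGTCA, which contains that core) and a TATA-like box (TATAAA or TATTTAA).
Vip, chr10:5639118-5639267, plus strand: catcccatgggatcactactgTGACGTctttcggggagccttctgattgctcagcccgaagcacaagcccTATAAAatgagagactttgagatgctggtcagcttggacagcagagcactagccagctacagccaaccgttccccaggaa
Npy, chr6:49822610-49822759, plus strand: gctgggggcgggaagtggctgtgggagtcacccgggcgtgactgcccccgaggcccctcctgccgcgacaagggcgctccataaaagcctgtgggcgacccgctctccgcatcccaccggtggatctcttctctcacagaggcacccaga
Cck, chr9:121495645-121495794, minus strand: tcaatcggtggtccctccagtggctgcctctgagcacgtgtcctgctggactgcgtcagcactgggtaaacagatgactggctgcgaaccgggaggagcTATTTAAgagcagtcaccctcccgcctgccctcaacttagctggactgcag
Pvalb, chr15:78206351-78206500, minus strand: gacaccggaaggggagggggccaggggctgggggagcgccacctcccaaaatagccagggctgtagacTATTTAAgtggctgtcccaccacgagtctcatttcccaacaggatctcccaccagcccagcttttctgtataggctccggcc
Sst, chr16:23890795-23890944, minus strand: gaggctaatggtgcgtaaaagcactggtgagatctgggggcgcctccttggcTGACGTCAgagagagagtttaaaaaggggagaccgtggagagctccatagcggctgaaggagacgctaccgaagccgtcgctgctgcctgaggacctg
The core element was found in Vip at position -79 from the start and in Sst at -48, where it is part of the full palindrome. Among 32851 mouse promoter windows of the same length, 5.19% hold the core and 1.4% the palindrome. The TATA-like letters were found at -30 in Vip, -32 in Pvalb and -1 in Cck, and in 8.57% of all windows. Vip, Npy and Cck therefore shared none of the searched letters in all 3 windows. Only exact letters were searched, so a window without capitals may still hold a variant of either element. These matches describe letters only.

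Markers of brain regions differed widely between the libraries, and their part in the values that follow was not separated from treatment. Gabra6 encodes a GABA receptor subunit typical of granule cells in the cerebellum. It reached 114 FPKM in the first LPS female, 15.6 and 90.5 FPKM in LPS males 1 and 2, and 74.6 FPKM in the first PBS female. In the other 8 libraries it was listed at 0 or, in LPS+DMA male replicate 2, at 0.170 FPKM. Tbr1, a transcription factor of cortical projection neurons, ranged from 9.07 to 24.5 FPKM in LPS+DMA and from 8.63 to 14.5 FPKM in PBS. In LPS it was 13.3 FPKM in female replicate 2, 1.19 in female replicate 1, 0.0670 in male replicate 1 and 0.0512 in male replicate 2. Summed over 11 cerebellum genes, the 4 libraries with Gabra6 above 1 FPKM held 113 to 729 FPKM and the other 8 held 9.65 to 28.2 FPKM. The whole-brain label is thus not matched by the low cortical signal of 3 LPS libraries, nor by the near absence of granule cell signal in those 8. Recovered totals lay between 27.5 and 41.4 M reads per library. The share of ribosomal RNA was 0.0389% for LPS female replicate 2 and 2.88% to 9.79% for the rest. Several overlaps and calls below turn on that library, and the part of its ribosomal share in them was not tested.

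**Figure D1:**
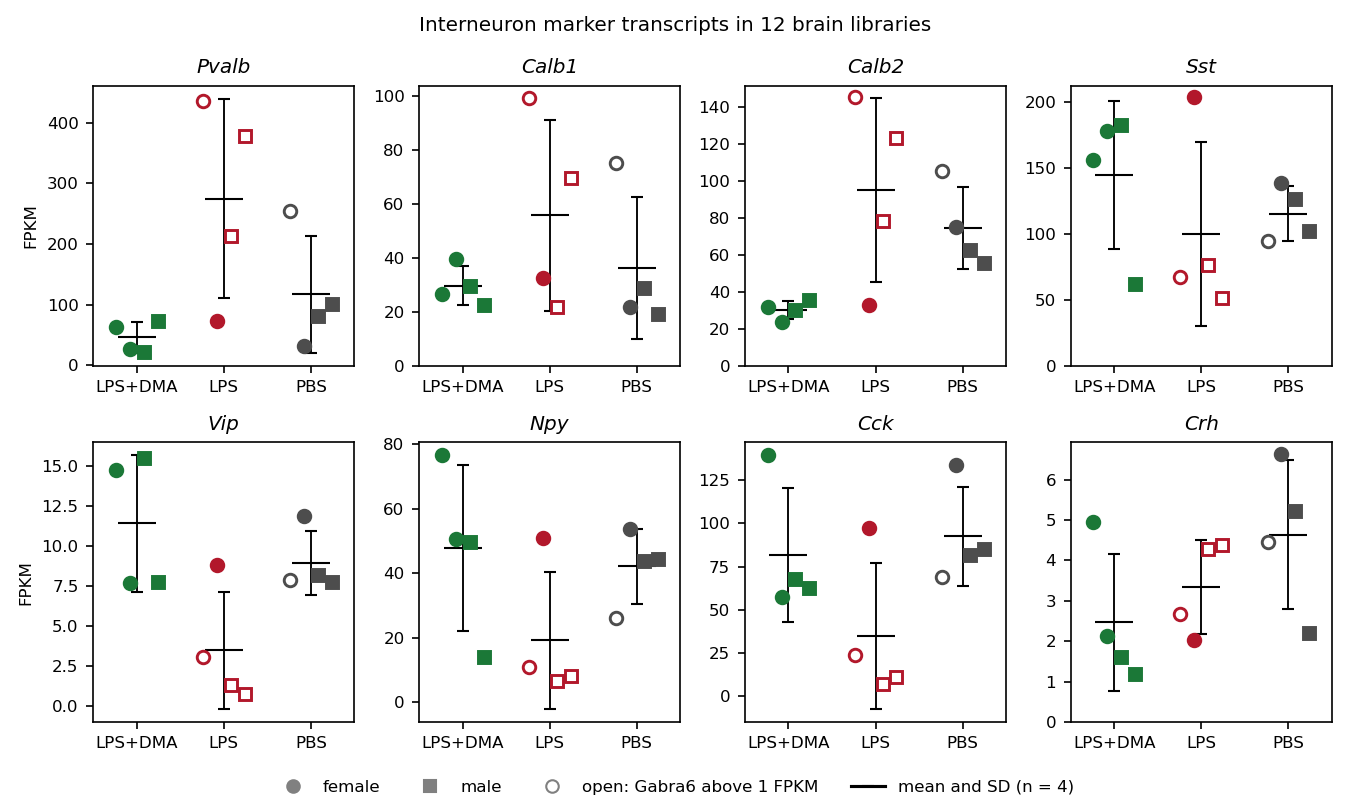
FPKM (y axis) of the 8 markers in each of the 12 libraries by arm (x axis), with circles for females, squares for males, open symbols for the 4 libraries with Gabra6 above 1 FPKM, and black bars for mean and SD (n = 4). Open symbols hold the 4 highest Pvalb values, from 212 to 436 FPKM, and the 3 lowest Vip values, from 0.773 to 3.05 FPKM.

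By mean over the 12 libraries, Pvalb was the most abundant at 146 ± 141 FPKM, followed by Sst at 120 ± 51.9, Cck at 69.6 ± 42.6, Calb2 at 66.7 ± 40.3, Calb1 at 40.6 ± 26.2, Npy at 36.3 ± 22.5, Vip at 7.92 ± 4.65 and Crh at 3.48 ± 1.72 FPKM (SD, n = 12). FPKM divides by 1 deposited length per gene, from 566 bases for Npy to 4846 for Calb1, so this order depends on those lengths. Whether they match the transcripts present was not tested. Neighbours in this order differed by less than the larger of their 2 SDs at every step except from Npy to Vip. By median over the 12 libraries Sst came first, at 114 FPKM against 77.6 FPKM for Pvalb. The 4 libraries with Gabra6 above 1 FPKM held the highest Pvalb values and raised its mean. Pvalb spanned a 20.1-fold range between libraries, Cck 21.3-fold and Vip 19.98-fold. Sst was the steadiest of the 8 with a 3.94-fold range, followed by Calb1 at 5.22-fold, Crh at 5.56-fold, Calb2 at 6.19-fold and Npy at 11.8-fold. Depth does not limit these readings: the lowest read count behind any value was 41 reads for Crh in LPS+DMA male replicate 2, and 103 for Vip in LPS male replicate 2.

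LPS+DMA against LPS, which asks what DMA changes in animals given LPS, was the comparison in which markers passed the test. In limma, with Benjamini-Hochberg adjustment over all 19571 genes and sex as a term, 3 of the 8 passed an adjusted p under 0.05: Vip rose, and Pvalb and Calb2 fell. Of all genes tested, 9.67% passed in this comparison, so 3 of 8 is above that share, but the count rests on which libraries are kept. It was 0 with a forebrain minus hindbrain score as a covariate, but there 0 of all 19571 genes passed, so that 0 is not particular to the markers. Without LPS female replicate 1 or either LPS male it was also 0, where 7 to 22 of all genes passed. The count was 0 as well without LPS+DMA female replicate 1 or LPS+DMA male replicate 1. In those fits 1255 of 19418 and 1561 of 19235 genes still passed. The fit without the 4 libraries with Gabra6 above 1 FPKM leaves 1 LPS library and assumes it to vary like the other arms. Only effect sizes are read from it. The median log2 change of the 19571 genes was 0.010.

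Of the 3 genes for calcium-binding proteins, Pvalb and Calb2 fell and Calb1 did not pass. Pvalb, the calcium buffer of fast-spiking cells (ENSMUSG00000005716, chromosome 15 from 78075314 to 78090600, minus strand, GRCm39 as in the deposited table), stood at 63.2, 27.2, 21.7 and 73.8 FPKM in LPS+DMA, against 436, 73.0, 212 and 378 FPKM in LPS. All LPS libraries except female replicate 2 were far above every LPS+DMA library, and that replicate lay at the top of the LPS+DMA range, so the arms overlapped. Pvalb fell by 2.43 on the log2(FPKM + 1) scale (SE 0.69, adjusted p = 0.0479). This call was lost without any one LPS+DMA library, either PBS male, LPS female replicate 1 or either LPS male (adjusted p = 0.0578 to 0.146). Without LPS female replicate 2 the change was -3.00 (adjusted p = 0.0107), in a fit where 3480 of 19364 genes passed.

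Calb2, which encodes calretinin (ENSMUSG00000003657, chromosome 8 from 110864134 to 110894842, minus strand), stood at 32.0, 23.5, 30.2 and 35.4 FPKM in LPS+DMA, against 146, 33.0, 78.5 and 123 FPKM in LPS. LPS female replicate 2 again sat inside the LPS+DMA range while the other 3 LPS libraries were well above it. Calb2 fell by 1.44 on the log2 scale (SE 0.39, adjusted p = 0.0431). Leaving out 1 library ended the call, except for LPS female replicate 2 and PBS female replicate 1 (adjusted p = 0.0561 to 0.133).

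Calb1, which encodes calbindin (ENSMUSG00000028222, chromosome 4 from 15881264 to 15908064, plus strand), stood at 26.7, 39.7, 29.4 and 22.7 FPKM in LPS+DMA, against 99.4, 32.4, 21.8 and 69.8 FPKM in LPS. It did not pass (log2 change -0.68, SE 0.46, adjusted p = 0.348). Unlike Pvalb and Calb2, Calb1 was high in LPS female replicate 1 and LPS male replicate 2 but not in LPS male replicate 1. That library held less Gabra6 than the other 2 (15.6 against 114 and 90.5 FPKM), and it held the most Slc6a5, the glycine transporter of brainstem and spinal inhibitory neurons, at 51.7 FPKM.

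Among the neuropeptides, Vip, the peptide of interneuron-inhibiting cells (ENSMUSG00000019772, chromosome 10 from 5589218 to 5597617, plus strand), stood at 14.7, 7.68, 15.5 and 7.72 FPKM in LPS+DMA, against 3.05, 8.78, 1.28 and 0.773 FPKM in LPS. LPS female replicate 2 exceeded 2 of the LPS+DMA libraries, and the other 3 LPS libraries were below all of them. Vip rose by 1.73 on the log2 scale (SE 0.40, adjusted p = 0.0273). Its call was lost without LPS+DMA female replicate 1, LPS+DMA male replicate 1, LPS female replicate 1 or either LPS male (adjusted p = 0.0527 to 0.0966).

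Cck, the peptide of a basket cell class and of pyramidal cells (ENSMUSG00000032532, chromosome 9 from 121318890 to 121324760, minus strand), stood at 140, 57.1, 67.6 and 62.6 FPKM in LPS+DMA, against 23.6, 97.3, 6.57 and 11.0 FPKM in LPS. It missed the threshold narrowly (log2 change 1.84, SE 0.53, adjusted p = 0.0520). Without LPS female replicate 2, LPS+DMA female replicate 2 or PBS female replicate 1 it passed (adjusted p = 0.00145, 0.0476 and 0.0480).

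Npy, a peptide of neurogliaform and of many somatostatin cells (ENSMUSG00000029819, chromosome 6 from 49799690 to 49806487, plus strand), stood at 76.6, 50.6, 49.7 and 14.1 FPKM in LPS+DMA, against 10.9, 51.0, 6.49 and 8.30 FPKM in LPS. Its change of 1.54 (SE 0.53) did not pass (adjusted p = 0.0898), and without LPS female replicate 2 it did (2.07, adjusted p = 0.0102). Vip, Cck and Npy thus shared 1 layout, with 3 low LPS libraries and LPS female replicate 2 among the LPS+DMA values.

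Sst, the somatostatin gene of dendrite-targeting cells (ENSMUSG00000004366, chromosome 16 from 23708323 to 23709708, minus strand), stood at 156, 178, 182 and 62.1 FPKM in LPS+DMA, against 67.5, 203, 76.6 and 51.7 FPKM in LPS. The highest value of all 12 libraries was in the LPS arm, and the log2 change of 0.63 (SE 0.38) did not pass (adjusted p = 0.306). Crh, the releasing hormone of the stress axis (ENSMUSG00000049796, chromosome 3 from 19747565 to 19749560, minus strand), stood at 4.95, 2.12, 1.62 and 1.19 FPKM in LPS+DMA, against 2.68, 2.04, 4.27 and 4.37 FPKM in LPS. It did not pass either (log2 change -0.39, SE 0.33, adjusted p = 0.468), and these arms overlapped throughout.

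**Figure D2:**
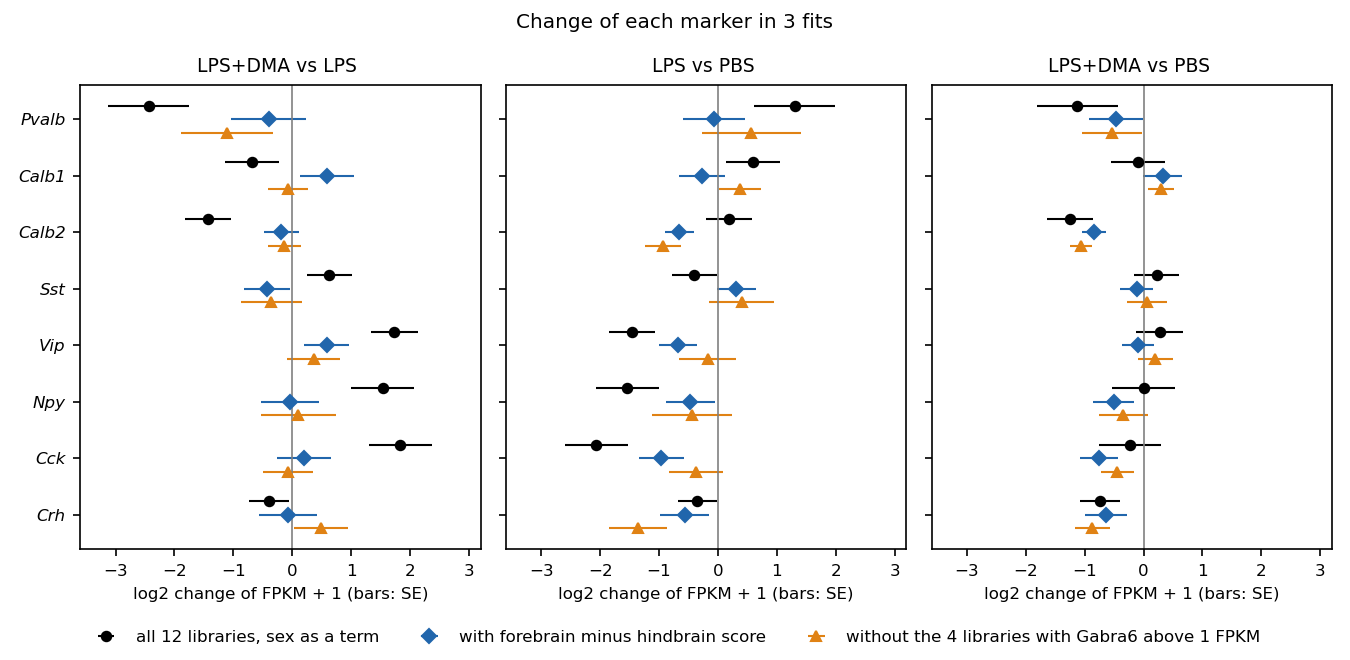
Log2 change of FPKM + 1 (x axis, bars are SE) of each marker (rows) in the 3 comparisons, from all 12 libraries (black), with the forebrain minus hindbrain score as a covariate (blue) and without the 4 libraries with Gabra6 above 1 FPKM (orange). In LPS+DMA against LPS, Vip lies at 1.73, 0.59 and 0.37 and Calb2 at -1.44, -0.18 and -0.14 in these fits. The orange fit leaves 1 LPS library, so its bars in comparisons with LPS hold no spread of that arm.

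Markers of several regions and other cell types moved in the same comparison as Vip, Pvalb and Calb2, in which 9.67% of all genes passed. The forebrain minus hindbrain score, the mean log2(FPKM + 1) of 12 cortex and hippocampus genes less that of 11 cerebellum genes, was 4.12 ± 0.45 in LPS+DMA, -1.27 ± 3.51 in LPS and 2.37 ± 2.11 in PBS (SD, n = 4 each). In LPS+DMA against LPS, 11 of 12 cortex and hippocampus genes rose, and their summed level was 943 to 1477 FPKM in LPS+DMA against 18.6 to 1132 FPKM in LPS. All 11 cerebellum genes were lower without any passing, at sums of 9.65 to 22.5 FPKM against 18.05 to 729 FPKM, and 4 of 9 tested brainstem and spinal genes fell, at sums of 0.588 to 10.6 FPKM against 2.74 to 152 FPKM. Of 10 choroid plexus genes 7 fell, with sums of 23.0 to 500.2 FPKM against 254 to 2011 FPKM. Of the striatal genes 1 of 7 rose, at sums of 38.5 to 636 FPKM against 28.2 to 193 FPKM. All 5 oligodendrocyte genes were lower and 1 fell, at sums of 376 to 844 FPKM in LPS+DMA against 904 to 1787 FPKM in LPS. All 5 microglia genes were lower and 2 fell, at sums of 45.6 to 79.8 FPKM against 101 to 138 FPKM, and the 5 red blood cell genes were lower with none passing, at 29.0 to 296 FPKM against 243 to 946 FPKM. The oligodendrocyte and microglia sums did not overlap between these arms, LPS female replicate 2 included, but the oligodendrocyte ranges lay close (844 against 904 FPKM). The share of all genes without overlap was not computed for these arms, so this has no background beside it. LPS+DMA male replicate 1 held the lowest LPS+DMA sum in both lists (376 and 45.6 FPKM). Neuron genes went both ways (4 of 8 higher, 2 rose and 2 fell), as did astrocyte genes (3 of 5 higher, 1 rose and 1 fell). Of 7 tested hypothalamus genes 5 were higher, and all 5 olfactory bulb genes were higher, with none passing in either list. The part of these regions and cell types in the marker changes was not tested.

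With the score as a covariate the change of Pvalb in LPS+DMA against LPS was -0.40 (SE 0.63), that of Calb2 -0.18 (SE 0.30), that of Vip 0.59 (SE 0.38) and that of Npy -0.04 (SE 0.49), at adjusted p of 0.740 to 0.989. Sst turned to -0.43 and Calb1 to 0.59 in that fit (adjusted p = 0.810 and 0.777). Without the 4 libraries with Gabra6 above 1 FPKM, the changes were -1.11 for Pvalb, -0.14 for Calb2, 0.37 for Vip, 0.10 for Npy and -0.08 for Cck. Treatment and regional content cannot be told apart in these LPS libraries.

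LPS against PBS asks what repeated LPS changes. None of the 8 markers passed in limma (0 of 8, against 0.0102% of the 19571 genes), while Vip, Npy and Cck had an unadjusted p under 0.05. In PBS, Vip stood at 7.86, 11.9, 8.17 and 7.72 FPKM, so 3 LPS libraries were below and LPS female replicate 2 inside the PBS range (log2 change -1.46, SE 0.40, adjusted p = 0.296). Cck, at 69.1, 134, 81.6 and 85.4 FPKM in PBS, and Npy, at 26.2, 53.8, 43.9 and 44.4 FPKM, had the same layout, with changes of -2.07 (SE 0.53, adjusted p = 0.280) and -1.54 (SE 0.53, adjusted p = 0.344). Without LPS female replicate 2, all 3 passed: Vip at -1.89, Npy at -2.07 and Cck at -2.70 (adjusted p = 0.00881, 0.0309 and 0.00363). In that fit 672 of 19364 genes passed, against 2 of 19571 with all libraries, so the gain is not particular to these markers. With the score as a covariate these changes were -0.68, -0.47 and -0.96.

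Among the calcium-binding proteins, Pvalb stood at 254, 31.7, 81.3 and 101 FPKM in PBS, Calb1 at 75.3, 21.9, 28.7 and 19.0 FPKM, and Calb2 at 106, 75.3, 62.6 and 55.5 FPKM. PBS female replicate 1, the PBS library with Gabra6, was the highest of its arm for all 3. Their changes in LPS against PBS were 1.31 (SE 0.69), 0.59 (SE 0.46) and 0.19 (SE 0.39), at adjusted p of 0.517, 0.670 and 0.896. Pvalb and Calb1 turned to -0.07 and -0.27 with the score as a covariate, and Calb2 to -0.66. Sst, at 94.5, 139, 126 and 102 FPKM in PBS, changed by -0.40 (SE 0.38) and Crh, at 4.46, 6.63, 5.22 and 2.21 FPKM, by -0.35 (SE 0.33), neither past the threshold (adjusted p = 0.735 and 0.737).

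LPS+DMA against PBS asks how far the LPS+DMA arm lies from animals given neither agent. These 2 arms were closer in the forebrain minus hindbrain score (4.12 and 2.37) than either was to LPS (-1.27), but not in striatal markers. None of the 8 passed in limma (0 of 8, against 0.0102% of all genes, with Calb2 and Crh at an unadjusted p under 0.05). Calb2 was the 1 marker of 8 whose arms did not overlap: its highest LPS+DMA value was 35.4 FPKM and its lowest PBS value 55.5 FPKM. Of all tested genes 6.64% had arms that did not overlap in this comparison, so 1 of 8 is near the background. The change was -1.25 (SE 0.39, 95% interval -2.10 to -0.39, adjusted p = 0.342), -0.84 with the score as a covariate and -1.07 without the 4 libraries with Gabra6 above 1 FPKM. It was negative in all 24 alternative fits, from -1.399 to -0.84, and passed the threshold in 0 of them. All 7 striatal markers were higher in LPS+DMA than in PBS, with a median log2 change of 2.05, against 1.78 in LPS+DMA against LPS. Their sums were 38.5 to 636 FPKM against 37.5 to 62.5 FPKM in PBS, with no gene passing. The part of the striatal markers in the Calb2 difference was not tested.

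For the other markers the LPS+DMA against PBS intervals were wide. Vip had a change of 0.28 (95% interval -0.60 to 1.15), Npy 0.00 (-1.17 to 1.17), Cck -0.23 (-1.40 to 0.94) and Sst 0.22 (-0.62 to 1.06). Pvalb had -1.13 (-2.63 to 0.38), Calb1 -0.09 (-1.09 to 0.91) and Crh -0.74 (-1.48 to -0.01). These intervals do not show the levels to be alike.

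**Figure D3:**
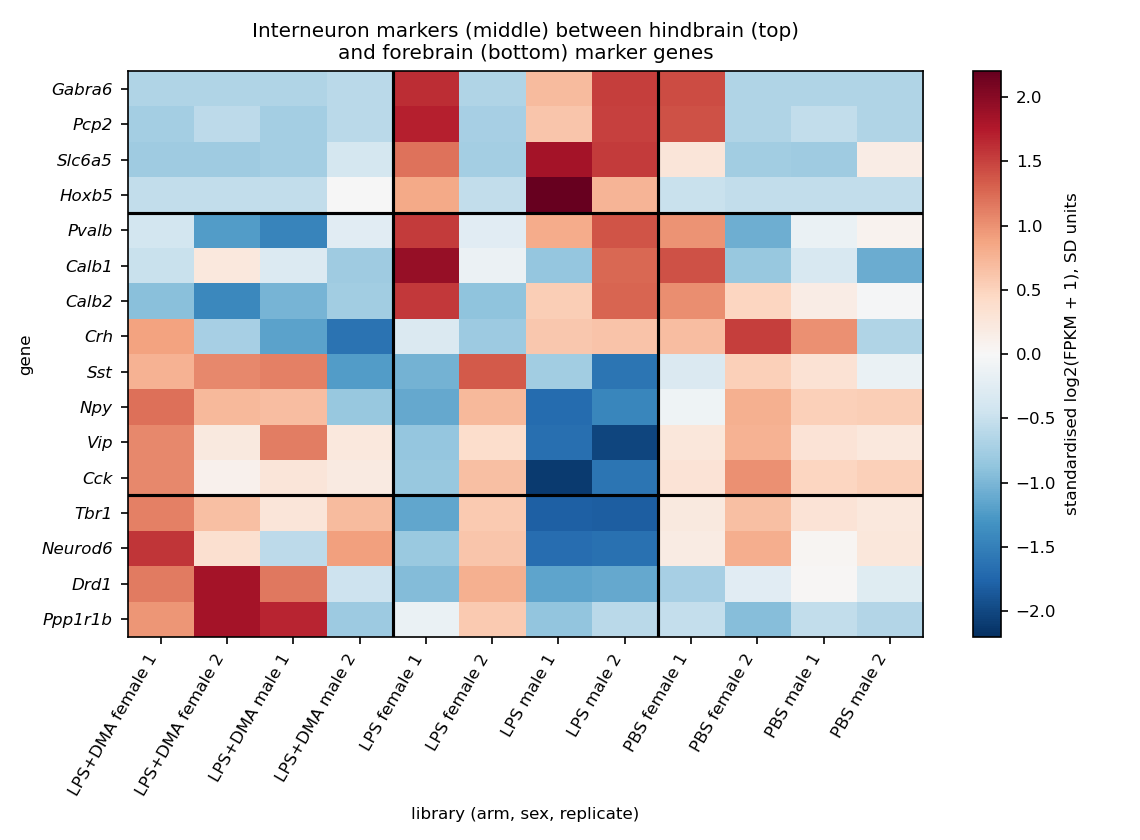
Standardised log2(FPKM + 1) (colour, in SD over the 12 libraries) of the 8 interneuron markers (middle rows) with hindbrain markers above and forebrain markers below, for each library (columns, by arm). Pvalb and Calb2 are high where Gabra6 is high, and Vip, Npy and Cck are low where Tbr1 is low.

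Across the 12 libraries Vip, Npy, Cck and Sst were more like each other than any was like a calcium-binding protein. As the measure of likeness, the root-mean-square difference between standardised profiles was 0.33 SD for Vip with Cck, 0.42 for Npy with Cck, 0.44 for Vip with Npy and 0.47 for Sst with Npy. Pvalb with Calb2 gave 0.56, Pvalb with Calb1 0.83 and Calb1 with Calb2 0.88. Pairs of a peptide other than Crh with a calcium-binding protein lay between 1.57 and 1.81. Crh was at least 0.95 from every other marker and was nearest to Calb2. All profiles share the same 12 libraries and their differences in regional markers, whose part in these likenesses was not tested.

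The genes nearest in profile to a marker were searched among all tested coding genes. Cck was nearest to Nrgn, a postsynaptic calmodulin-binding protein of the forebrain (0.20 SD), and to Stx1a, a syntaxin of the release machinery (0.21). Pvalb was nearest to Kcng4, a modulatory potassium channel subunit (0.20), Nqo2 (0.21) and Pcsk6, a proprotein convertase (0.21). Vip was nearest to Tmem198 (0.18), Syt16 (0.22) and Epop (0.23), and Npy to Krt12 (0.26), Car11 (0.30) and Lmo4 (0.32). Calb2 had Fdxr, the mitochondrial ferredoxin reductase, at 0.26, and Calb1 had Ptprr, a receptor-type tyrosine phosphatase, at 0.33. The nearest genes of Sst and Crh were Tctn2 at 0.35 and Ring1 at 0.50.

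Other interneuron genes moved in both directions in LPS+DMA against LPS. Of 46 genes, 3 rose and 2 fell, a share near the 9.67% of all genes, and the median log2 change was 0.27 against 0.010 over all genes. Gad1, the main GABA-synthesising enzyme, rose to 63.7 ± 10.9 FPKM in LPS+DMA, against 43.4 ± 7.56 FPKM in LPS (log2 change 0.55, adjusted p = 0.0491). Cplx3, a complexin, rose to 4.39 ± 1.75 FPKM, against 1.58 ± 2.46 FPKM in LPS (adjusted p = 0.0499). Sncg, the synuclein gene that marks a Cck basket cell class and is also strong in brainstem motor neurons, fell to 4.64 ± 2.51 FPKM, against 49.4 ± 28.7 FPKM in LPS (-3.01, adjusted p = 0.0197). Chodl, a marker of long-range somatostatin cells, fell by 0.93 (adjusted p = 0.0414), and Lhx6, the transcription factor of Pvalb and Sst cells, had 1.53 and did not pass (adjusted p = 0.0503).

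No member of this list passed with the score as a covariate (0 of all 19571 genes), with no filter (83 of 35401) or with the 2 arms fitted alone (6 of 18669). The median change was -0.04 with the score and 0.03 without the 4 libraries with Gabra6 above 1 FPKM, where 1 LPS library remains. With per-million scaling 1 rose and 5 fell, which turns the balance of directions, and with a replicate block 7 rose and 4 fell. The count of 5 was 0 without LPS female replicate 1 or either LPS male, fits that called 7 to 22 of all genes. It was 1 to 3 without LPS+DMA female replicate 1, LPS+DMA male replicate 1 or either PBS male. Without LPS female replicate 2, where 3480 of 19364 genes passed, it was 11, and without PBS female replicate 1 it was 9. In LPS against PBS none of the 46 passed, with small p for Gad1 (-0.50), Dlx1 (-1.71), Sncg (1.52), Chodl (0.69) and Satb1 (-0.75) at adjusted p of 0.319 to 0.373. Without LPS female replicate 2 there were 1 higher and 5 lower calls, where 672 of 19364 genes passed. LPS+DMA against PBS gave none either, with Cbln4 (-0.78) and Sncg (-1.49) first (adjusted p = 0.324 and 0.385).

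**Figure D4:**
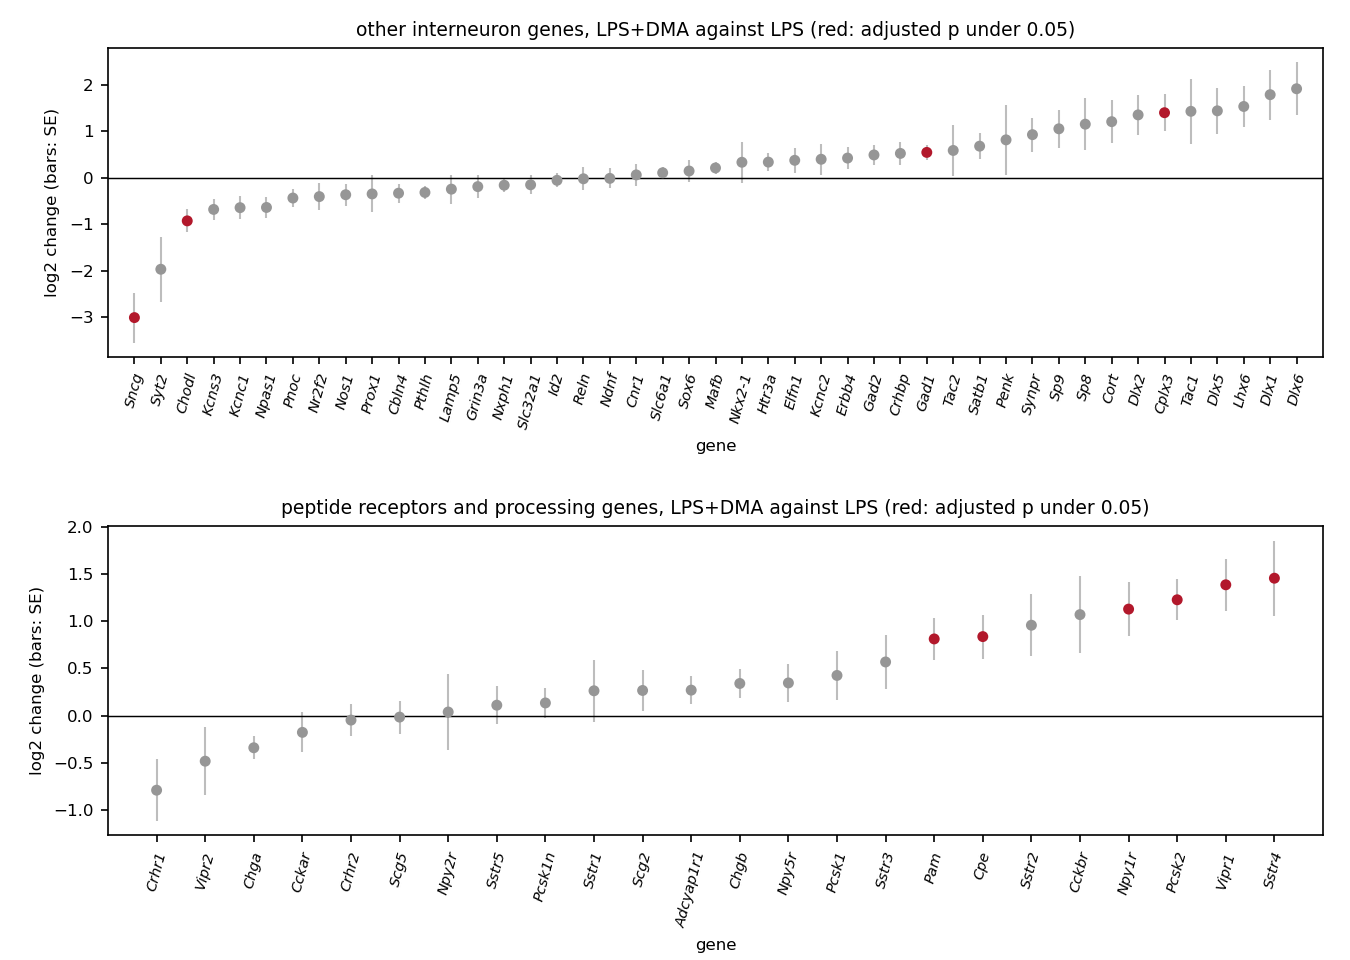
Log2 change of FPKM + 1 (y axis, bars are SE) in LPS+DMA against LPS for 45 of the 46 other interneuron genes (top) and 24 tested peptide receptor and processing genes (bottom), each gene on the x axis in order of its change, with red for adjusted p under 0.05. In the upper panel 2 red genes lie above 0 and 2 below, and in the lower panel all 6 red genes lie above 0.

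Of 24 tested genes for receptors and processing of the same peptides, 6 rose and 0 fell in LPS+DMA against LPS, where 9.67% of all genes passed. In all, 18 were higher and 6 lower, with a median log2 change of 0.31 against 0.010 over all genes. Vipr1, a receptor for the Vip peptide, rose to 3.94 ± 1.10 FPKM in LPS+DMA, against 1.11 ± 1.32 FPKM in LPS (1.39, adjusted p = 0.0213). Npy1r, a receptor for neuropeptide Y, rose to 6.94 ± 2.01 FPKM, against 2.96 ± 2.40 FPKM in LPS (1.13, adjusted p = 0.0362), and Sstr4, a somatostatin receptor, rose by 1.46 (adjusted p = 0.0440). Among the enzymes that cut and finish peptide precursors, the convertase gene Pcsk2 rose to 53.4 ± 7.85 FPKM, against 23.6 ± 11.2 FPKM in LPS (1.23, adjusted p = 0.0192). Pam, the amidating enzyme, rose by 0.81 (adjusted p = 0.0440) and Cpe, the carboxypeptidase, by 0.84 (adjusted p = 0.0464).

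These 6 calls were 0 with the score as a covariate, with no filter, with the 2 arms fitted alone, and without LPS female replicate 1 or either LPS male. Those fits called 0 to 83 of all genes. The median change was 0.06 with the score and 0.13 without the 4 libraries with Gabra6 above 1 FPKM, where 1 LPS library remains. Without either LPS+DMA female, LPS+DMA male replicate 2 or either PBS male the list had 2 calls, and without PBS female replicate 2 it had 4. Without LPS female replicate 2 it had 10, 2 of them lower, where 3480 of 19364 genes passed. In LPS against PBS none of the 24 passed, with Pcsk2 (-0.71), Npy1r (-0.95), Vipr1 (-0.87), Pcsk1 (-0.80) and Pam (-0.66) at adjusted p of 0.3105 to 0.337. Without LPS female replicate 2 there were 5 lower calls, where 672 of 19364 genes passed. LPS+DMA against PBS gave none, with Pcsk2 first (0.51, adjusted p = 0.424). LPS+DMA against LPS and LPS against PBS share the LPS libraries, so opposite signs in them are not separate observations.

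Sex did not give a difference that passed. In a fit with 1 mean per arm and sex, the change in females less the change in males passed for 0 of the 8 markers in each of the 3 comparisons, with limma calling 0 genes in all, while between 491 and 1110 of all genes had an unadjusted p under 0.05. For LPS+DMA against LPS, the change of Vip was 0.89 in females and 2.57 in males, and the difference of -1.68 (SE 0.65) had an adjusted p of 0.853. Crh had 0.36 in females and -1.15 in males, a difference of 1.52 (SE 0.52, adjusted p = 0.853). LPS female replicate 2, the LPS library with forebrain content, is 1 of the 2 LPS females, so sex and regional content are mixed within the LPS arm.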

How the data were processed

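The authors deposited 1 table of FPKM values for 56748 genes and 12 libraries, with gene length, name, biotype and GRCm39 coordinates. HISAT2 2.2.1 and featureCounts 2.0.6 appear in the submitters' processing notes, which give no roles. Both stranded and unstranded library preparations are described, per the labels' protocols. No result here covers overlap of other genes with the 8 markers. FPKM times length fell on whole reads (tolerance 0.1 reads, values up to 1000 reads) for 100% of values, which gave the read totals. No library looked repeated: among 66 pairs, the smallest chi-square divided by its degrees of freedom was 29.5.

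The filter kept genes reaching 0.5 FPKM in 2 or more libraries, and values were put on the log2(FPKM + 1) scale, on which changes of low genes come out too small. The fit used limma 3.58.1 in R 4.3.3 with sex as a term over all 12 libraries, with variances that follow the mean and are robust, and two-sided adjusted p under 0.05 over all genes tested. The fit was first run on simulated data with independent noise for each gene, to check that it returns the size of a planted change. The simulation held no regional differences shared by genes, so it does not check the calls made here. Each library is from its own mouse, per the labels. The 8 markers, the gene lists and the named genes (the markers, their 3 nearest profiles, up to 6 list genes per comparison by p, and 2 markers per region) were chosen with earlier results of these data known. The regional genes entering the score are not among the 8. Alternatives covered the pseudocount, filter, scaling, a voom fit on recovered reads, the fit's terms and samples, and each library left out. The values of 1 gene of the list of other interneuron genes are not reported here, though it is in the list's counts.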

Additional observations from a re-analysis of the deposited data

Results flagged for a closer look

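In 24 sets of 4 libraries (8 markers in 3 arms), 2 held a library far from the other 3 on the log2 scale, at a level that chance passes in about 5% of such sets. Sst was 62.1 FPKM in LPS+DMA male replicate 2, against 156 to 182 FPKM in the other LPS+DMA libraries; the same library also had the lowest LPS+DMA value of Npy, 14.1 FPKM, and of Drd1, a striatal dopamine receptor, 1.75 FPKM. Vip was 11.9 FPKM in PBS female replicate 2, against 7.72 to 8.17 FPKM in the other PBS libraries; this library had the most Doc2g, an olfactory bulb marker, at 10.2 FPKM. The part of these markers in either value was not tested.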

How the results depend on the processing

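Of the 8 markers, 3 passed in LPS+DMA against LPS. The count was 0 with no filter (83 of 35401 genes passing), with the 2 arms alone (6 of 18669) and with the forebrain minus hindbrain score as a covariate (0 of 19571). Leaving out 1 library gave 0 to 5 in that comparison, 0 to 3 in LPS against PBS (main value 0) and 0 in LPS+DMA against PBS. The same fits called 7 to 3480, 0 to 672 and 0 to 6 of all genes in these comparisons. In the paired fit with a replicate block the count was 3; deviations of same-numbered libraries correlated at 0.452 and 0.135 in 2 of 6 checks and between -0.071 and 0.036 in the other 4, so the numbers are not treated as pairs. With the score as a covariate, LPS against PBS reversed for Pvalb (-0.0663), Sst (0.3115), Calb1 (-0.2689) and Calb2 (-0.6584), LPS+DMA against LPS for Sst (-0.4293), Npy (-0.0424) and Calb1 (0.5936), and LPS+DMA against PBS for Sst (-0.1178), Vip (-0.0968), Npy (-0.5101) and Calb1 (0.3247). Without the 4 libraries with Gabra6, LPS against PBS reversed for Sst (0.4071) and Calb2 (-0.9312), LPS+DMA against LPS for Sst (-0.3553), Cck (-0.0754) and Crh (0.4879), and LPS+DMA against PBS for Npy (-0.3427) and Calb1 (0.3031). Npy in LPS+DMA against PBS, near 0 throughout, was -0.0046 and -0.0053 with pseudocounts of 0.1 and 0.01 and -0.1418 with per-million scaling, under which the median of all genes was -0.098 there, against 0.0001 without it, and -0.114 in LPS+DMA against LPS, against 0.010 without it. Leaving out 1 library gave -0.1232 to 0.6677 for Calb2 in LPS against PBS, and in LPS+DMA against PBS -0.0404 to 0.537 for Sst, -0.0202 to 0.5589 for Vip, -0.3893 to 0.3956 for Npy, -0.558 to 0.1138 for Cck and -0.3705 to 0.2801 for Calb1. The cause of these reversals was not tested.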
